A study of Mus musculus with 6 samples.

Results

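The endothelin, natriuretic peptide and cGMP signalling genes described here are *Ednra*, *Ednrb*, *Edn1*, *Npr1*, *Npr2*, *Npr3*, *Gucy1a3*, *Gucy1b3* and *Pde5a*. They were taken by gene name, and all 9 were found among the 24421 rows of a matrix of bulk RNA sequencing. Levels are in TPM, which gives the transcripts of a gene as a share of all transcripts of the library, after scaling reads for transcript length. There were 3 libraries of cells of the secondary heart field (SHF) lineage and 3 of the cardiac neural crest (CNC) lineage, all from mice of the 129S6/SvEv strain at 8 weeks of age. SHF mice carried the Mef2cSHF allele and CNC mice the Wnt1-Cre2 allele, and both carried the conditional CAG-Sun1/sfGFP tracer allele, which switches on GFP for life in every cell whose ancestors expressed the recombinase. Tissue was taken from the root and the ascending part of the aorta, cells were digested free with collagenase and elastase, and living GFP+ cells were sorted. The recombinases mark descent and not cell type, so that smooth muscle cells, fibroblasts, endothelial cells and other descendants can all be in the sort. The column names of all libraries are marked WT. The study describes the replicates as biological, and whether aortas were pooled is not given in the sources used here.

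Endothelin and cGMP act on vascular tone in opposite directions. Endothelin-1, the peptide encoded by *Edn1*, is released mainly by endothelium and contracts smooth muscle through the type A receptor (*Ednra*), while the type B receptor (*Ednrb*) clears the peptide and, on endothelium, releases nitric oxide. Natriuretic peptides bind the membrane guanylyl cyclases *Npr1* and *Npr2*, and nitric oxide binds the soluble guanylyl cyclase made of an alpha (*Gucy1a3*) and a beta (*Gucy1b3*) subunit. Both enzymes make cGMP, which relaxes smooth muscle through a protein kinase. *Pde5a*, the target of sildenafil, breaks cGMP down, and *Npr3* removes natriuretic peptides without making cGMP. In the embryo, endothelin receptors also guide neural crest cells, *Ednra* in the cardiac and cranial crest and *Ednrb* in the crest that forms melanocytes and enteric neurons.

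A difference between the lineages larger than the spread of the replicates was shown for no member. In limma on log2(TPM + 1), 0 of the 8 members that could be tested had an adjusted p under 0.05, against 0% of the 10185 genes tested. *Npr3* was too low to test. An unadjusted p under 0.05 was found for 1 member, *Edn1*, against 5.86% of all genes, and for 0 members did all SHF libraries lie on one side of all CNC libraries, against 11.8% of all genes. Exact two-sided permutation tests were run as well, and with so few libraries their smallest possible p is 0.1. What the libraries do show is which parts of the pathway the sorted cells of either lineage carried. *Ednra*, *Npr1*, *Gucy1a3*, *Gucy1b3* and *Pde5a* were above 5 TPM in all 6 libraries. *Ednrb*, *Edn1* and *Npr2* were listed at 0 in 1 or 2 libraries, and *Npr3* was at or near 0 throughout.

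**Figure D1:**
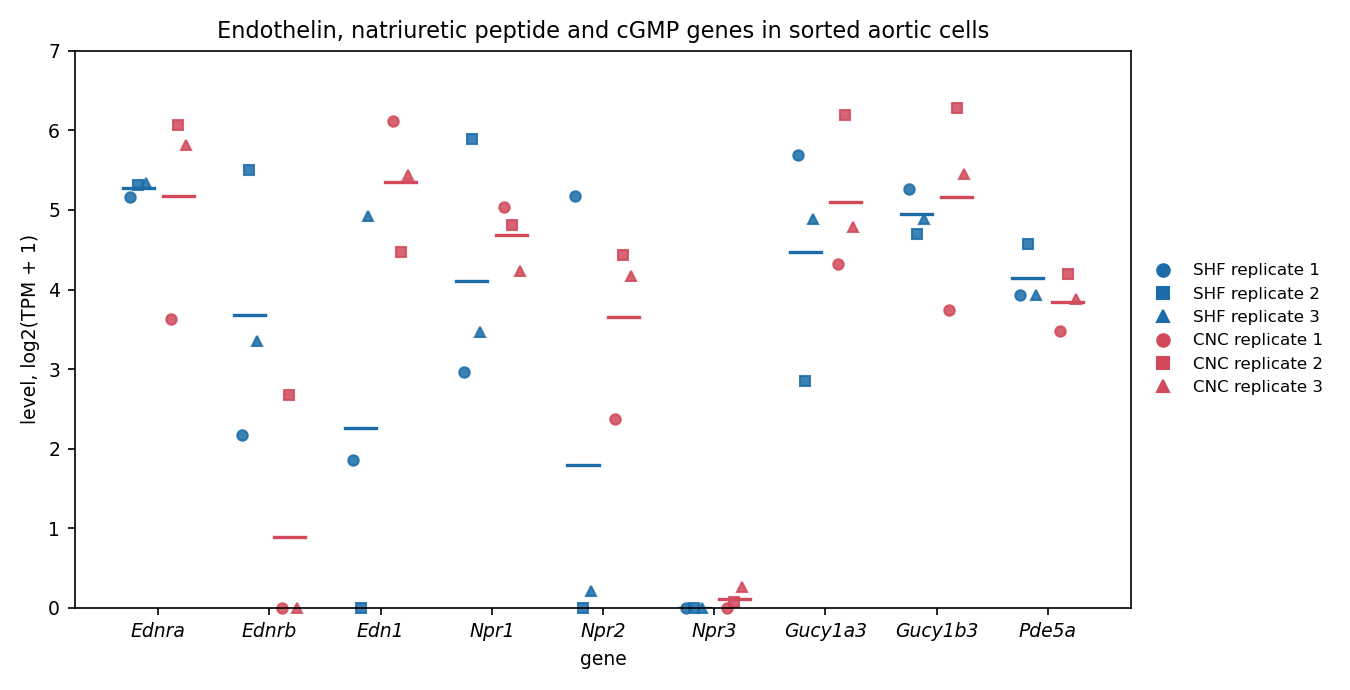
Level of each of the 9 genes on the log2(TPM + 1) scale (vertical axis) in the 3 SHF libraries (blue) and the 3 CNC libraries (red), with a marker shape per replicate number and a horizontal bar at the mean of the lineage. *Ednra* lay within a narrow band in SHF and spread widely in CNC, *Ednrb*, *Edn1* and *Npr2* reached 0 in some libraries, and the lineages overlapped for all 9 genes.

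The number of reads cannot be had from TPM, so depth is unknown and no counting interval is given. Of the 4601 genes tested with a mean from 10 to 50 TPM, the range that holds all 8 tested members, 40.3% were listed at 0 in at least 1 library. Of the 8 members, 3 were. Between 9255 and 11858 genes were above 0 per library. The sum of 10 fibroblast genes ran from 43208 to 67380 TPM and that of 10 smooth muscle genes from 1309 to 3116 TPM. Most of the former came from *Gsn*, *Dcn*, *Col1a1* and *Col3a1*, which smooth muscle cells express too, so that these sums do not measure the share of either cell type. *Lum*, another gene of the fibroblast list, was at 1866 to 3616 TPM, above the smooth muscle actin *Acta2*, at 363 to 956 TPM, in every library. *Xist* exceeded 5 TPM in replicates 2 and 3 of SHF, and Y-linked transcripts were in the other 4 libraries, so that sex and lineage are partly confounded. In bulk RNA, fewer cells of a type and less RNA per cell cannot be told apart.

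On GRCm38, the build called mm10, *Gucy1b3* lies on chromosome 3 from 82032006 to 82074689 and *Gucy1a3* from 82092427 to 82145789, both on the minus strand. The subunit genes are neighbours, with 17737 bases and 0 annotated genes between them, and GENCODE M21 lists them under the newer names Gucy1b1 and Gucy1a1. *Npr1*, from 90450591 to 90465866, and *Pde5a*, from 122728947 to 122859374, are on chromosome 3 as well. *Ednra* is on chromosome 8 from 77663031 to 77724464, *Ednrb* on chromosome 14 from 103814625 to 103844402 and *Edn1* on chromosome 13 from 42301476 to 42307990. *Npr2* is on chromosome 4 from 43631935 to 43651244 and *Npr3* on chromosome 15 from 11839896 to 11907287. All 9 are protein-coding. Exons of 6 members, all but *Ednrb*, *Gucy1a3* and *Gucy1b3*, overlap exons of a gene on the other strand, and since the library protocol marks no strand, reads there cannot be told apart.

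The sequences before the start of transcription are shown for the 3 members whose 250 bases there touch no annotated gene, so that the ligand, a membrane cyclase and a soluble cyclase subunit can be set side by side. They are from RefSeq on GRCm38.p6, 5′ to 3′ on the strand of the gene and ending at the base before the RefSeq start. Capitals mark CCAAT boxes (CCAAT) and GC boxes (GGGCGG) on either strand. *Edn1* is read from chr13:42301226-42301475 on the plus strand, *Npr1* from chr3:90465867-90466116 on the minus strand and *Gucy1b3* from chr3:82074712-82074961 on the minus strand.
Edn1: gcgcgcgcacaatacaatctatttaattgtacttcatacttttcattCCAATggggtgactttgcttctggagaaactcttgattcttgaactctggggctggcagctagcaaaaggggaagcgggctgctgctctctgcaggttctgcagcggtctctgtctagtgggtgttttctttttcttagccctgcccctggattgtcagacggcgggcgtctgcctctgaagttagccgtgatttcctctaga
Npr1: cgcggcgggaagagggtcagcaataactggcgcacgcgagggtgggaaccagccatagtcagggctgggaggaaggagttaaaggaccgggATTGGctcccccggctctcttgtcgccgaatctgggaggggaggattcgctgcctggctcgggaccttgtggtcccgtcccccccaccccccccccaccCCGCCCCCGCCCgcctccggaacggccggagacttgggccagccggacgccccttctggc
Gucy1b3: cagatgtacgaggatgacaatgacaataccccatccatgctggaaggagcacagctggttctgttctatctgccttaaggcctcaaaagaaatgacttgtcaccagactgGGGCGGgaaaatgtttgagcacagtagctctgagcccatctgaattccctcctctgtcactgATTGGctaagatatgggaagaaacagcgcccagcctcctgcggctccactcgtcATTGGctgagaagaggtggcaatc
*Edn1* held 1 CCAAT box and 0 GC boxes, *Npr1* held 1 and 2, and *Gucy1b3* held 2 and 1. Over the 10 windows of all 9 members, 5 of the 9 members held a CCAAT box and 4 a GC box, against 33.8% and 32.7% of the 32851 windows of all genes. A member was counted once if any of its windows matched, while the shares over all genes are per window. A TATA box (TATAAA), an E-box (CACGTG) and a CArG box, the element bound by serum response factor in many smooth muscle genes, matched in 0 of the 9 members and in 12.4%, 6.02% and 1.47% of all windows. These letters are a description of the windows and were not tied to any level.

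*Ednra*, the contractile endothelin receptor, had the highest mean of the 9 genes. It stood at 34.92, 38.76 and 39.61 TPM in SHF replicates 1, 2 and 3, against 11.41, 66.3 and 55.13 TPM in CNC replicates 1, 2 and 3. The SHF libraries were close together and all lay inside the range of the CNC libraries, of which replicate 1 was the lowest of all 6 and replicate 2 the highest. The means were 37.8 ± 2.50 TPM (SD, n = 3) in SHF and 44.3 ± 29.0 TPM (SD, n = 3) in CNC, while the mean difference of log2(TPM + 1), SHF minus CNC, had the other sign at 0.10 with a standard error of 0.77. Its 95% interval ran from -1.58 to 1.79, which includes differences of more than 1 in either direction (limma, adjusted p = 0.995). Without CNC replicate 1 the difference was -0.67. By mean TPM *Ednra* was above 68.1% of the genes tested.

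*Ednrb*, the type B receptor, was more uneven. The SHF replicates held 3.52, 44.15 and 9.2 TPM, and the CNC replicates 0, 5.37 and 0 TPM. SHF replicate 2 stood above the rest, 2 of the 3 CNC libraries were listed at 0, and the lineages overlapped because SHF replicate 1 was below CNC replicate 2. The difference of log2(TPM + 1) was 2.78 with a standard error of 1.37 and a 95% interval from -0.22 to 5.79. It did not pass the test (limma, adjusted p = 0.874, unadjusted p = 0.0661), nor did the exact permutation test (p = 0.2). The estimate stayed above 0 under all 16 alternatives, from 1.29 to 4.91, with adjusted p from 0.648 to 0.997. Without SHF replicate 2 it was 1.87.

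Markers of cell types that use the type B receptor moved with it in part. The sum of 10 endothelial genes was 318, 894 and 628 TPM in SHF replicates 1, 2 and 3 and 336, 254 and 249 TPM in the CNC replicates. The library with the highest *Ednrb* also had the highest endothelial sum. *Eng*, a gene of this list, made up most of each CNC sum, with 275.15, 180.5 and 225.16 TPM. In SHF it stood at 218.98, 276.9 and 112.89 TPM, most of the sum in replicate 1. All 10 of these genes were above 0 in some SHF library, and 4, *Cdh5*, *Tie1*, *Cldn5* and *Emcn*, were listed at 0 in all CNC libraries. Other lists had such absences too. Of 8 Schwann cell genes, 5 were at 0 in all SHF libraries and 2 in all CNC libraries. Of 8 cardiomyocyte genes, 2 were at 0 in all SHF libraries and 5 in all CNC libraries. The share over all genes was not counted. The sum of 8 Schwann cell genes went the other way, with 15.3, 1.5 and 16.0 TPM in SHF and 21.4, 94.6 and 34.1 TPM in CNC. The sum of 7 melanocyte genes was 28.9, 24.2 and 35.1 TPM in SHF and 14.9, 10.3 and 23.1 TPM in CNC. It was higher in every SHF library than in every CNC library, but lowest within SHF in replicate 2, where *Ednrb* was highest. *Dct*, *Tyrp1*, *Pmel* and *Mlana* of this list were at 0 in all 6 libraries. *Tyr* was between 8.68 and 24.01 TPM, and by itself it overlapped, with 13.85 TPM in SHF replicate 1 and 14.87 TPM in CNC replicate 1. The part of endothelial cells, Schwann cells or melanocytes in the level of *Ednrb* was not tested.

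The balance of the receptors was compared within each library, where both genes are on the same scale per length. *Ednra* made up 90.8%, 46.7% and 81.2% of the summed receptor TPM in SHF replicates 1, 2 and 3, and 100%, 92.5% and 100% in the CNC replicates. Every CNC library thus leaned further toward the type A receptor than any SHF library, and SHF replicate 2 was near an even balance. As log2 of (*Ednra* + 1) over (*Ednrb* + 1), the ratio was 1.60 ± 1.62 (SD, n = 3) in SHF and 4.28 ± 1.33 (SD, n = 3) in CNC. The difference was -2.68 with an exact two-sided permutation p of 0.1, the smallest this design allows, and 0.3 after adjustment over the 3 ratios compared. It was -1.79 without SHF replicate 2, -1.92 without CNC replicate 3, -3.38 without SHF replicate 1 and -4.79 with a pseudocount of 0.1 TPM. The values in CNC replicates 1 and 3 rest on *Ednrb* listed at 0, and with a pseudocount of 5 TPM in place of 1 the difference was -1.46, with an exact permutation p of 0.2. The summed level of both receptors was 56.7 ± 23.3 TPM (SD, n = 3) in SHF and 46.1 ± 31.1 TPM (SD, n = 3) in CNC.

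**Figure D2:**
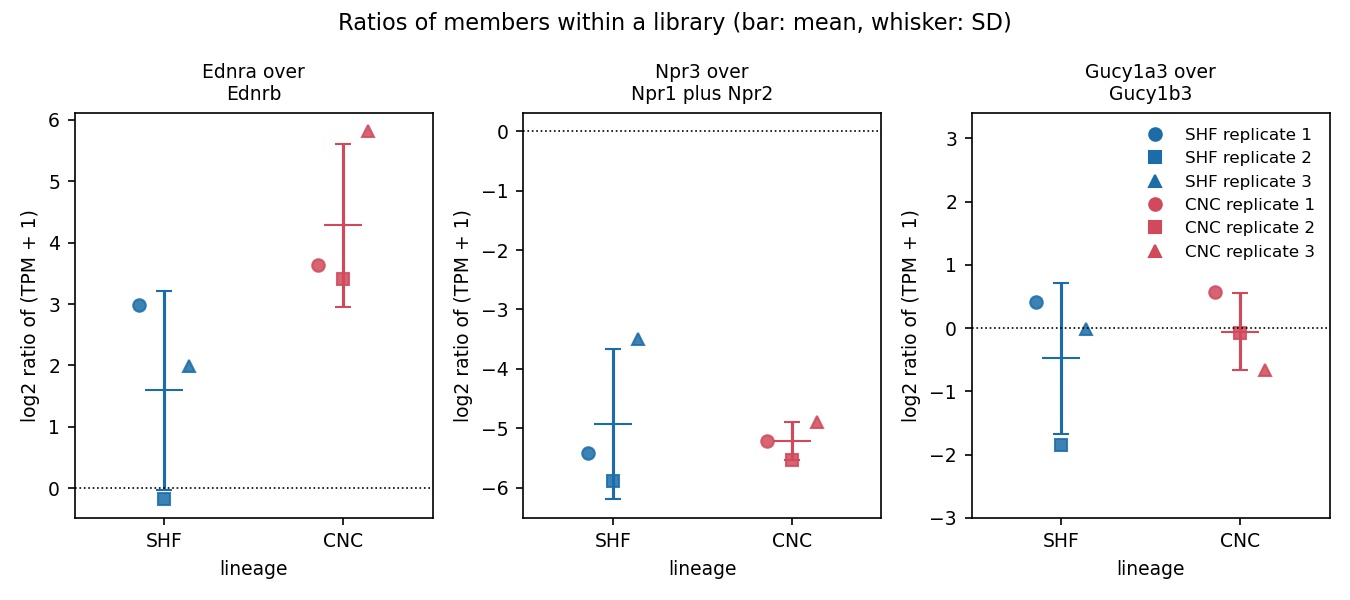
Log2 ratios of (TPM + 1) within each library for *Ednra* over *Ednrb*, *Npr3* over the sum of *Npr1* and *Npr2*, and *Gucy1a3* over *Gucy1b3*, with a marker per library, a bar at the mean and a whisker of 1 SD. For the endothelin receptors the 3 CNC libraries, from 3.40 to 5.81, lay above the 3 SHF libraries, from -0.18 to 2.99, and for the other ratios the lineages overlapped, with that of *Npr3* set by its denominator and the pseudocount.

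*Edn1*, the ligand, gave the smallest p of the members. It stood at 2.63, 0 and 29.37 TPM in SHF replicates 1, 2 and 3, against 68.68, 21.17 and 42.43 TPM in CNC replicates 1, 2 and 3. The CNC libraries were all above SHF replicates 1 and 2, but SHF replicate 3 was above CNC replicate 2. Means were 10.7 ± 16.3 TPM (SD, n = 3) and 44.1 ± 23.8 TPM (SD, n = 3). The difference of log2(TPM + 1) was -3.08 with a standard error of 1.35 and a 95% interval from -6.05 to -0.12 (limma, unadjusted p = 0.0428). It failed the correction over all genes (adjusted p = 0.821), 5.2% of the genes tested had a smaller p, and the exact permutation p was 0.2. Across the 16 alternatives the lowest estimate was -4.41, found when SHF replicate 3 was left out, and the highest -1.95, found when SHF replicate 2 was. The adjusted p ran from 0.683 to 0.997.

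Endothelium is the usual source of this ligand, and the endothelial sums given above were higher in SHF replicates 2 and 3 than in any CNC library, while the estimate of *Edn1* was lower in SHF. SHF replicate 1 had an endothelial sum of 318 TPM, of which *Eng* was 218.98 TPM, and 2.63 TPM of *Edn1*. CNC replicate 3 had a sum of 249 TPM, of which *Eng* was 225.16 TPM, and 42.43 TPM of *Edn1*. These close sums thus rest mostly on 1 gene. Within CNC, replicate 1 was highest both for *Edn1* and for the endothelial sum, of which *Eng* was 275.15 of 336 TPM. Besides *Eng*, *Tek* and *Kdr* were highest in replicate 1 of CNC, *Pecam1* and *Esam* in replicate 2 and *Egfl7* in replicate 3. SHF replicate 3, the highest of its lineage for *Edn1*, had an endothelial sum of 628 TPM. SHF replicate 2 had the highest endothelial sum, 894 TPM, with *Edn1* listed at 0. *Edn1* can also be induced by stress, and the sum of 12 dissociation response genes was 13352, 6110 and 11143 TPM in SHF replicates 1, 2 and 3 and 8809, 7246 and 8268 TPM in CNC. The lowest of these sums was in the library where *Edn1* was listed at 0, and the highest was in SHF replicate 1, where *Edn1* was at 2.63 TPM. The part of endothelial cells or of the dissociation in the level of *Edn1* was not tested.

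*Npr1*, the receptor of atrial and B-type natriuretic peptide, was found in every library. SHF replicates 1, 2 and 3 held 6.82, 58.12 and 10.08 TPM, and CNC replicates 1, 2 and 3 held 31.72, 27 and 17.72 TPM. The CNC libraries were close together and lay between SHF replicate 2, the highest, and the other SHF libraries. The difference of log2(TPM + 1) was -0.58 with a standard error of 0.99 (limma, adjusted p = 0.936), with a 95% interval from -2.76 to 1.59. The value was -0.01 without SHF replicate 1, -1.47 without SHF replicate 2, -0.26 without SHF replicate 3 and -1.72 in the libraries with Y-linked transcripts. *Npr1* was above *Ednrb* in all 6 libraries.

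*Npr2*, the receptor of C-type natriuretic peptide, stood at 35, 0 and 0.16 TPM in the SHF replicates, against 4.17, 20.65 and 17.01 TPM in the CNC replicates. Only SHF replicate 1 of its lineage held it above 1 TPM, whereas all CNC libraries did. The difference was -1.86 with a standard error of 1.59 and a 95% interval from -5.37 to 1.64 (limma, adjusted p = 0.895). The estimate was -3.55 without SHF replicate 1, -0.97 without SHF replicate 2 and -1.07 without SHF replicate 3, and it turned to 1.51 in the libraries with Y-linked transcripts, where SHF replicate 1 is the only SHF library. In the SHF libraries *Npr1* and *Npr2* were uneven in opposite ways. *Npr1* made up 16.3%, 100% and 98.4% of their sum in SHF replicates 1, 2 and 3 and 88.4%, 56.7% and 51.0% in the CNC replicates. The sum of both receptors was 36.7 ± 24.3 TPM (SD, n = 3) in SHF and 39.4 ± 7.15 TPM (SD, n = 3) in CNC.

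*Npr3*, the clearance receptor, was listed at 0 in all SHF libraries and in CNC replicate 1, with 0.05 TPM in CNC replicate 2 and 0.2 TPM in CNC replicate 3. It did not reach the filter, and no fold change is given. *Npr3* was below *Npr1* in all 6 libraries and below *Npr2* wherever *Npr2* was above 0. With *Npr3* this close to 0, its log2 ratio to the sum of the cyclase receptors is set by that sum and by the pseudocount, and the difference of that ratio between lineages, 0.28 (exact permutation p = 0.9), says nothing of *Npr3* itself.

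The natriuretic peptides themselves were listed at 0 in most libraries. *Nppb* and *Nppc*, encoding B-type and C-type natriuretic peptide, were listed at 0 in all 6 libraries, and *Nppa*, encoding atrial natriuretic peptide, had 2.58 TPM in SHF replicate 1 alone. *Corin*, the protease that activates atrial natriuretic peptide, had 4.75 TPM in SHF replicate 2 alone. *Ostn*, encoding osteocrin, a peptide that binds the clearance receptor, had 16.24 TPM in CNC replicate 2, 5.79 TPM in CNC replicate 3 and 0 in the other libraries. None of these 5 genes reached the filter for testing.

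The subunits of soluble guanylyl cyclase were among the 3 highest members. *Gucy1a3* measured 50.64, 6.24 and 28.5 TPM in SHF replicates 1, 2 and 3, against 18.96, 72.34 and 26.65 TPM in CNC replicates 1, 2 and 3. *Gucy1b3* stood at 37.54, 25.02 and 28.65 TPM in the SHF replicates, against 12.43, 76.68 and 42.61 TPM in the CNC replicates. CNC replicate 2 held the highest level of both, CNC replicate 1 the lowest *Gucy1b3* and SHF replicate 2 the lowest *Gucy1a3*. The difference of log2(TPM + 1) was -0.63 with a standard error of 0.93 for *Gucy1a3* (limma, adjusted p = 0.928). For *Gucy1b3* it was -0.20 with a standard error of 0.79 and a 95% interval from -1.94 to 1.53 (limma, adjusted p = 0.975).

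The alpha subunit is active only as a partner of the beta subunit, so the balance of their transcripts was examined within libraries. *Gucy1a3* made up 57.4%, 20.0% and 49.9% of their sum in SHF replicates 1, 2 and 3 and 60.4%, 48.5% and 38.5% in the CNC replicates. SHF replicate 2 stood apart with a low share of the alpha transcript, and the other 5 libraries were closer to an even balance. The difference of the log2 ratio between lineages was -0.42 (exact permutation p = 0.7). *Gucy1a2*, a second alpha subunit, measured 0, 1.02 and 1.94 TPM in SHF, against 10.94, 2.41 and 0.39 TPM in CNC, where replicate 1 stood near the 12.43 TPM of *Gucy1b3* in that library. *Gucy1b2* was listed at 0 in every library, as were the 4 membrane cyclases *Gucy2c*, *Gucy2e*, *Gucy2f* and *Gucy2g*.

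*Pde5a*, the phosphodiesterase, varied least. It stood at 14.19, 22.75 and 14.3 TPM in SHF replicates 1, 2 and 3, against 10.13, 17.32 and 13.68 TPM in CNC replicates 1, 2 and 3. Its highest value was 2.25 times its lowest. Of the 6276 tested genes above 0 in all libraries, 14.4% had a smaller ratio, and the median ratio was 5.12. For *Ednra*, *Gucy1b3*, *Npr1* and *Gucy1a3* this ratio was 5.81, 6.17, 8.52 and 11.6. The means of *Pde5a* were 17.1 ± 4.91 TPM (SD, n = 3) in SHF and 13.7 ± 3.60 TPM (SD, n = 3) in CNC. The difference of log2(TPM + 1) was 0.29 with a standard error of 0.95 and a 95% interval from -1.80 to 2.39 (limma, adjusted p = 0.968). That standard error is moderated by the spread of other genes and is not the spread of *Pde5a* alone. Leaving out 1 library at a time, the difference ran from 0.08 to 0.47.

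By mean TPM over the 6 libraries, the order of the members was *Ednra* (41.0), *Gucy1b3* (37.2), *Gucy1a3* (33.9), *Edn1* (27.4), *Npr1* (25.2), *Pde5a* (15.4), *Npr2* (12.8), *Ednrb* (10.4) and *Npr3* (0.0417), and by the median it was the same. From *Ednra* to *Ednrb*, neighbours in this order were not separated by their spread, since the gene with the higher mean was above the next in only 3 or 4 of the 6 libraries. *Ednrb* was above *Npr3* in all SHF libraries and in CNC replicate 2, both were at 0 in CNC replicate 1, and *Ednrb* was at 0 against 0.2 TPM of *Npr3* in CNC replicate 3. *Pde5a* was below *Gucy1b3* and *Ednra* in all 6 libraries. The members did not rank the libraries alike. CNC replicate 2 had the highest level of *Ednra*, *Gucy1a3* and *Gucy1b3*, SHF replicate 2 that of *Ednrb*, *Npr1* and *Pde5a*, and CNC replicate 1 the lowest level of *Ednra*, *Gucy1b3* and *Pde5a*. CNC replicate 1 also had the lowest sum of the 10 smooth muscle genes, 1309 TPM, against 2029 and 1603 TPM in CNC replicates 2 and 3 and 3116, 1494 and 1856 TPM in SHF replicates 1, 2 and 3. SHF replicate 1, with the highest of these sums, was not the highest library for *Ednra*, *Gucy1a3*, *Gucy1b3* or *Pde5a*. The part of smooth muscle cells in these levels was not tested.

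The genes whose pattern over the 6 libraries was most like that of *Ednra* were *Zmiz1*, *Sel1l* and *Fcf1*, with a root mean square difference of 0.181, 0.223 and 0.234 between log2(TPM + 1) values centred on the mean of each gene. *Zmiz1*, the closest, measured 11.55, 14.68 and 13.95 TPM in the SHF replicates, against 3.76, 17.58 and 16.45 TPM in the CNC replicates, lowest in CNC replicate 1 as *Ednra* was. *Gucy1b3* was number 16 in this order, with 0.319. With 10185 genes and 6 libraries, some genes will be this close to any pattern.

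**Figure D3:**
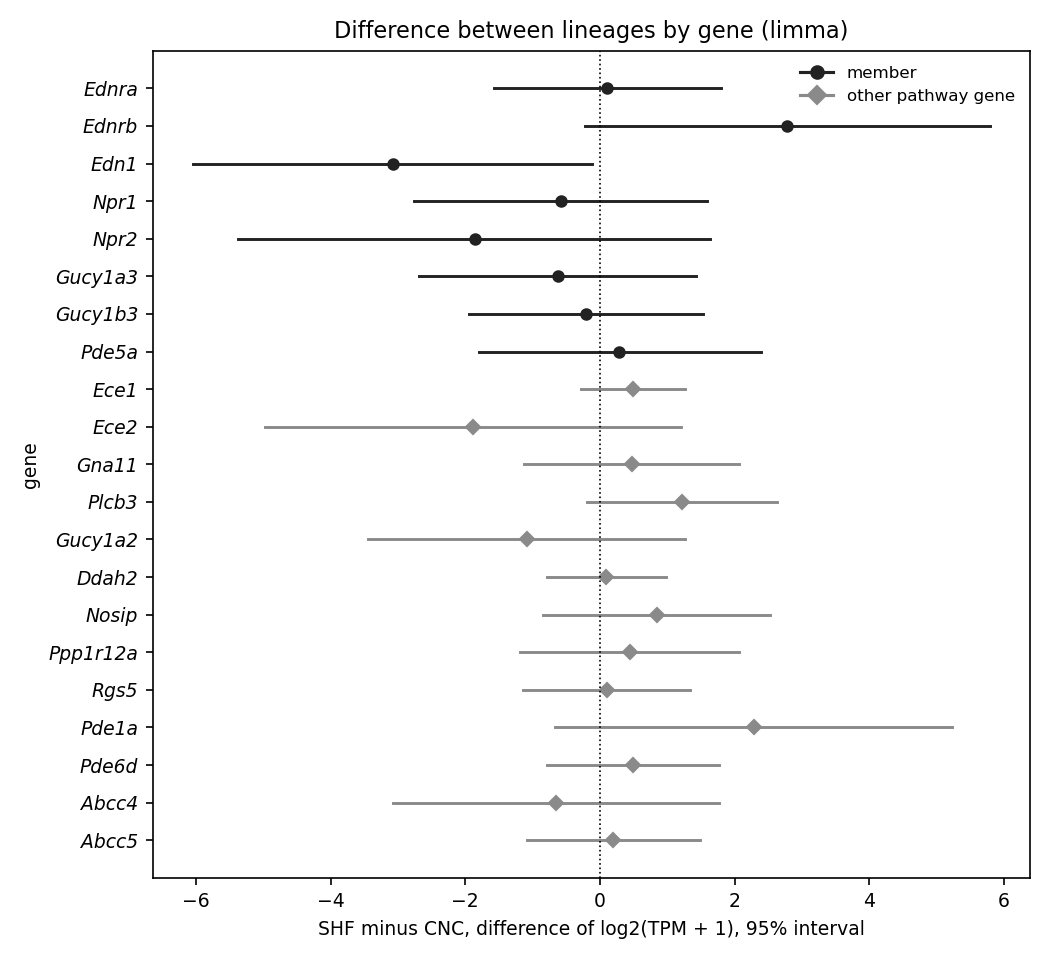
Difference of log2(TPM + 1), SHF minus CNC, with its 95% interval from limma (horizontal axis) for the 8 tested members (black circles) and the 13 tested genes among the 2 of highest mean in each list of other pathway genes (grey diamonds). All intervals but that of *Edn1*, from -6.05 to -0.12, include 0, and those of *Ednrb*, *Edn1*, *Npr2*, *Ece2* and *Pde1a* are the widest of those plotted.

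The wider pathway was described with 56 other genes in 8 lists. Of these, 10 were listed at 0 in all 6 libraries and 33 could be tested. In limma 0 of the 33 had an adjusted p under 0.05 in either direction, and 0 had an unadjusted p under 0.05. The estimate was above 0, toward SHF, for 22 of the 33, or 66.7%, against 51.2% of all genes tested, and the median difference was 0.38 against 0.02. That median fell to 0.12 without CNC replicate 1, to 0.13 without SHF replicate 2 and to 0.08 with library weights. For the 8 members the estimate was above 0 for 3 and the median was -0.39. In 1 of the 33 genes, *Plcb3*, the lineages did not overlap. By list, the estimate was above 0 for 1 of 4 tested genes of endothelin ligands and processing, 5 of 7 of G proteins and phospholipase C and 0 of 1 of the other guanylyl cyclase subunits. It was above 0 for 4 of 4 of nitric oxide synthesis, 7 of 9 of the cGMP-dependent kinases and substrates, 4 of 6 of the other phosphodiesterases and 1 of 2 of the efflux transporters. No natriuretic peptide gene could be tested. These counts are of signs alone, and some signs turned when a library was left out.

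Among genes for endothelin processing, *Ece1*, the enzyme that cuts the precursor of endothelin-1 to its active form, was far above its substrate. It stood at 224.59, 318.24 and 352.24 TPM in SHF replicates 1, 2 and 3, against 273.13, 209.27 and 158.69 TPM in CNC replicates 1, 2 and 3, above *Edn1* in all 6 libraries. The difference of 0.49 with a standard error of 0.35 did not pass the test (limma, adjusted p = 0.887). It ran from 0.29 to 0.68 when a library was left out and was 0.11 in the libraries with Y-linked transcripts. *Ece2*, a related enzyme, measured 19.17, 74.73 and 0 TPM in SHF, against 21.9, 82.96 and 39.55 TPM in CNC. The other endothelins were listed at 0 in most libraries, with *Edn2* at 0 in all 6 and *Edn3* above 0 in only CNC replicate 2 (1.17 TPM) and CNC replicate 3 (2.35 TPM).

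Downstream of the endothelin receptors, *Gna11*, a Gq-class G protein subunit, stood at 30.15, 56.18 and 59.25 TPM in SHF, against 73.5, 14.77 and 33.32 TPM in CNC, with the lineages overlapping. *Plcb3*, a phospholipase C that such G proteins activate, measured 49.45, 95.81 and 41.54 TPM in SHF, against 19.93, 29.94 and 24.34 TPM in CNC. Every SHF library was above every CNC library, and the means of log2(TPM + 1) differed by 1.22 with a standard error of 0.64. It did not pass the test (limma, adjusted p = 0.874), and 1 such gene of 33 is fewer than the 11.8% of all genes.

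**Figure D4:**
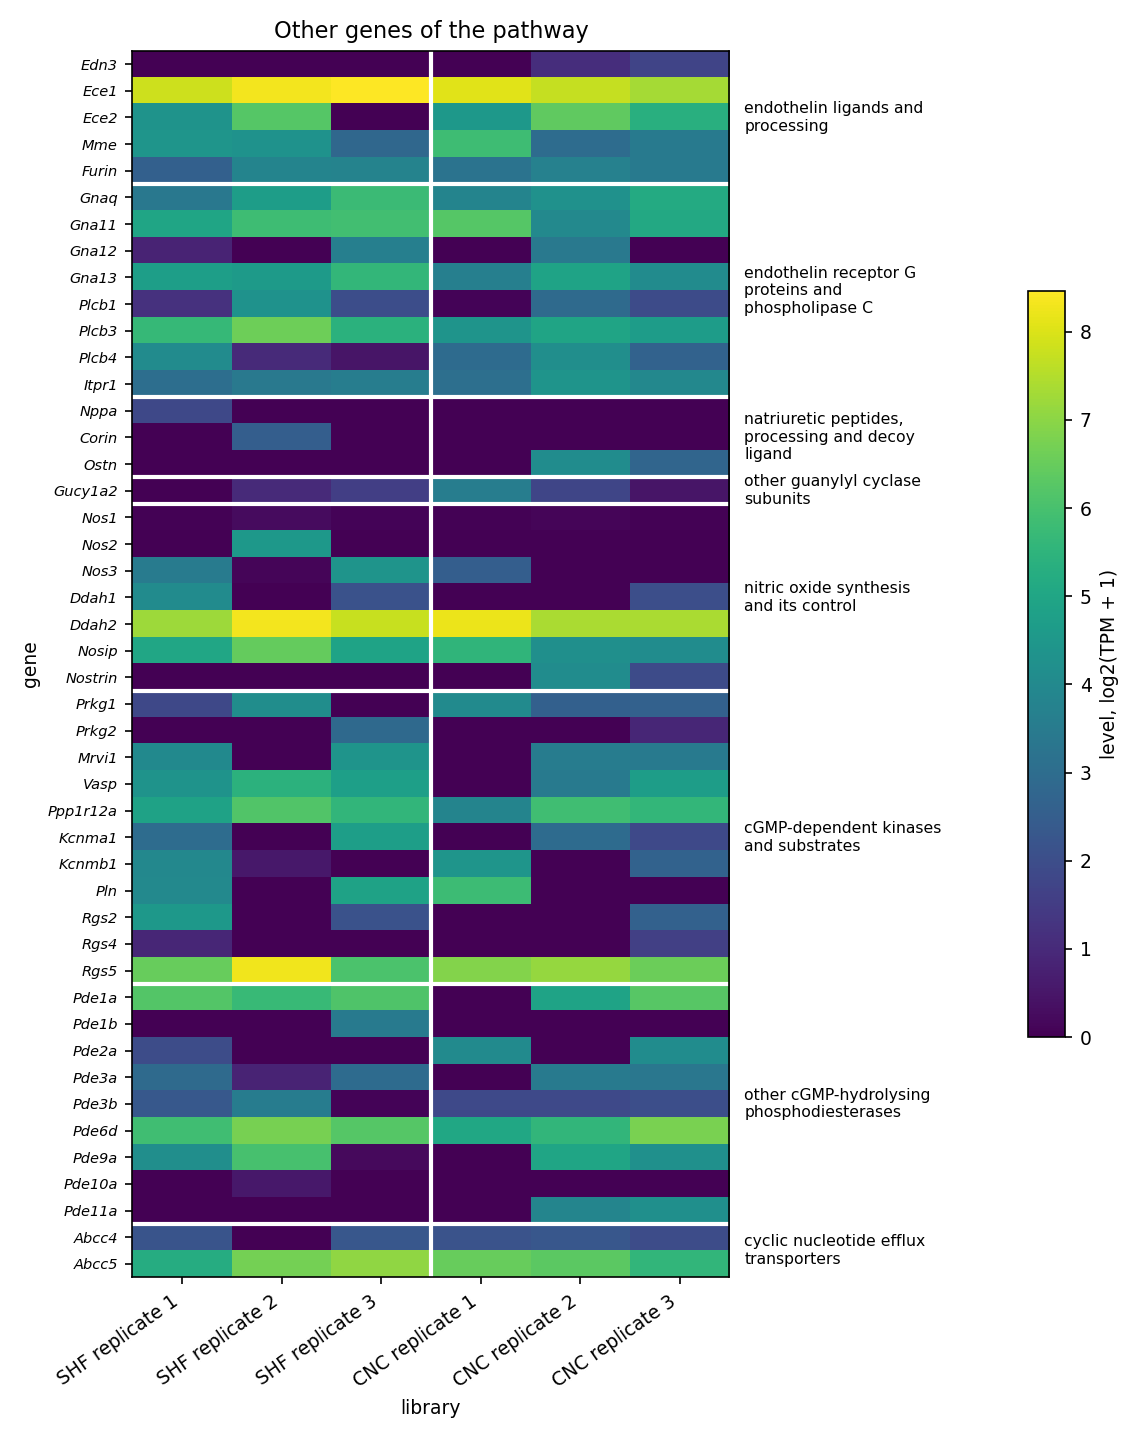
Level on the log2(TPM + 1) scale (colour) of the other pathway genes above 0 in at least 1 library (rows, grouped by list) in the 6 libraries (columns, SHF on the left and CNC on the right of the white line). *Ece1*, *Ddah2* and *Rgs5* were the brightest rows in both lineages, *Nppa* and *Corin* were above 0 in 1 library each and *Ostn* in 2, and many other rows were at 0 in single libraries of either lineage.

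On the nitric oxide side, the synthases themselves were low or patchy. *Nos3*, the endothelial synthase, stood at 10.51, 0.09 and 20.06 TPM in SHF, against 4.76, 0 and 0 TPM in CNC, *Nos2* had 21.87 TPM in SHF replicate 2 alone, and *Nos1* did not exceed 0.19 TPM. *Ddah2*, which removes an inhibitor of the synthases, was abundant at 149.56, 315.86 and 215.9 TPM in SHF and 295.88, 168.56 and 168.32 TPM in CNC, with a difference of 0.09 (standard error 0.40). *Nosip*, a synthase-binding protein, measured 30.87, 86.47 and 29.21 TPM in SHF, against 45.01, 17.38 and 16.42 TPM in CNC.

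*Prkg1*, the kinase that carries the cGMP signal in smooth muscle, stood at 2.56, 16.87 and 0 TPM in SHF, against 15.57, 5.07 and 5.13 TPM in CNC. Of its targets and related regulators, *Ppp1r12a*, a subunit of myosin phosphatase, measured 28.1, 70.33 and 46.69 TPM in SHF, against 13.12, 57.02 and 47.17 TPM in CNC. *Rgs5*, a regulator of G protein signalling typical of pericytes, stood at 89.68, 311.26 and 66.23 TPM in SHF, against 117.29, 138.85 and 93 TPM in CNC. SHF replicate 2 was the highest library for all 3 of these genes, although the lineages overlapped.

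Among the other phosphodiesterases that break down cGMP, *Pde1a* measured 71.85, 50.58 and 69.75 TPM in SHF, against 0, 28.95 and 76.79 TPM in CNC. In 5 of the 6 libraries it was above *Pde5a*, and in CNC replicate 1 it was listed at 0. Its difference of 2.28 with a standard error of 1.34 (limma, adjusted p = 0.874) rested on that library, and without CNC replicate 1 it was 0.41. *Pde6d*, whose product is a prenyl-binding protein rather than an enzyme, stood at 57.73, 106.02 and 74.59 TPM in SHF, against 31.88, 47.04 and 106.54 TPM in CNC. Of the efflux transporters of cyclic nucleotides, *Abcc5* measured 37.18, 103.11 and 131.89 TPM in SHF, against 90.21, 79.79 and 46.15 TPM in CNC, and *Abcc4* did not exceed 3.95 TPM.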

How the data were processed

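RNA of sorted GFP+ cells was amplified by the SmartSeq2 protocol and sequenced as 6 libraries. The authors aligned reads with bowtie2, estimated gene levels with RSEM 1.2.25 on mm10, per the labels, and deposited TPM, 1 column per library. The annotation is not given in the sources used here. Columns were matched to libraries by the library code in the labels. The SHF columns carry the prefix AHF, which no label explains, and were taken as SHF from that code.

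The 10185 genes that reached 1 TPM in 3 or more libraries were fitted on the log2(TPM + 1) scale. The tool was limma 3.58.1 (lmFit, then eBayes with a trend), run in R 4.3.3. Differences are SHF minus CNC, p-values were adjusted by Benjamini-Hochberg over all 10185 genes, and the threshold was 0.05. Standard errors and intervals are those after eBayes, which draws the spread of a gene toward that of genes of similar level. Fold changes on this scale understate those of low genes. Ratios within libraries were compared with exact two-sided permutation tests.

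The members and lists were chosen with earlier results of these data known. All members are named, and of each pathway list the 2 genes with the highest mean. *Edn2*, *Edn3*, *Nppa*, *Nppb*, *Nppc*, *Gucy1b2*, *Gucy2c*, *Gucy2f*, *Gucy2g*, *Nos1*, *Nos2*, *Nos3* and *Prkg1* were named after their values were seen.

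Alternatives were pseudocounts, filters, scalings, eBayes without a trend, library weights, a replicate block, libraries with Y-linked transcripts only, and each library left out. Positions are from GENCODE M21. Plots were made with matplotlib 3.10.9.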

Additional observations from a re-analysis of the deposited data

How the results depend on the processing

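Unknown depth and values of 0 limit these comparisons. The number of members past the threshold was 0 under all 16 alternatives, as was that of the other pathway genes in either direction. Of all genes, 1, which is no member, passed with a pseudocount of 5, and 0 under the other alternatives. The median of the members ran from -0.79 to 0.14 when a library was left out. The difference of *Ednra* was -0.01 with quantile normalization, -0.17 with library weights and -0.01 in the libraries with Y-linked transcripts only, and *Rgs5* was at -0.10 with library weights. In the libraries with Y-linked transcripts, where SHF replicate 1 stands alone and is assumed to vary like CNC, the difference was 1.51 for *Npr2*, 0.59 for *Gucy1a3*, 0.11 for *Gucy1b3*, 0.04 for *Abcc4*, -0.88 for *Abcc5*, -0.44 for *Ddah2*, -0.14 for *Gna11*, -0.23 for *Ppp1r12a* and -0.35 for *Rgs5*. Leaving out 1 library at a time, it ran from -0.67 to 0.55 for *Ednra*, -1.23 to 0.18 for *Gucy1a3*, -0.91 to 0.36 for *Gucy1b3*, -1.05 to 0.10 for *Abcc4*, -0.16 to 0.74 for *Abcc5*, -0.18 to 0.36 for *Ddah2*, -0.09 to 1.03 for *Gna11*, -0.19 to 0.83 for *Ppp1r12a* and -0.57 to 0.54 for *Rgs5*. The ratio of *Npr3* to the cyclase receptors differed by -0.31 with a pseudocount of 0.1 and by -0.44 to 0.76 when a library was left out, and that of *Gucy1a3* to *Gucy1b3* by -0.87 to 0.26. The cause was not tested.

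The correlations of deviations from the lineage means were -0.011, -0.004 and -0.011 for replicates 1, 2 and 3. They show no shared deviation of libraries with the same number. Whether libraries shared a sort or a preparation cannot be told from them, and the labels do not give it. The fit with a replicate block called 0 members, and 0 genes in all.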
